A study of Rattus norvegicus with 7 samples.

Results

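Potassium channel subunit genes were examined in the lungs of hypoxic rats treated with SU-5416, with and without sorafenib. The members were all probe sets (groups of short oligonucleotides that report 1 transcript) whose single gene symbol starts with Kcn, a letter code and a number, apart from Kcnj8. This gave 125 probe sets for 74 genes, out of 31042 non-control probe sets and 14217 named genes on the array. The rule itself uses gene names and no measured value, but it was chosen with earlier results of these data known.

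The tissue was the right lung of the Dahl salt-sensitive rat, a strain in which a high-salt diet raises blood pressure, cleared of blood by perfusion through the pulmonary artery and taken at 3.5 weeks. Every rat breathed about 9.5% oxygen and received SU-5416, a blocker of VEGF receptors, a combination that produces severe pulmonary hypertension in rats. The 3 arrays of the HSU group had hypoxia and SU-5416 only. The 4 arrays of the HSU_Sor group were from rats that also received sorafenib, an inhibitor of RAF and of several receptor tyrosine kinases. No normoxic array and no array of hypoxia alone was analysed here, so nothing below measures an effect of hypoxia or of SU-5416. The labels give neither ages nor the sorafenib dose. Group sizes are stated in rats, so 1 array was read as 1 animal.

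Potassium channels let potassium leave the cell and so hold its membrane potential negative. In pulmonary arterial smooth muscle, closing them depolarises the membrane, opens calcium channels and contracts the vessel, and acute hypoxia is known to close several of them. The family divides into voltage-gated pore subunits (Kv), silent Kv subunits that work only in company with other Kv subunits, auxiliary Kv subunits, calcium- or sodium-activated channels, inward rectifiers (Kir) and tandem-pore leak channels.

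The arrays were alike in overall level, with medians between 3.59 and 3.68 on the log2 scale. The p-values, all two-sided, rest on 3 against 4 arrays, which limits the precision of every value. HSU 1 and HSU 2 stood apart from the other 5 arrays at a probe set of the MHC gene RT1-Bb, at 12.57 on both against 3.55 to 3.72. They also had the highest mean of 9 heart muscle markers, 6.90 and 6.21 against 4.53 to 5.22 on the others, so results are also given without them. The titles mark all HSU replicates, and no HSU_Sor replicate, with the letter b, so a batch with that meaning and the drug cannot be told apart. In whole lung, fewer cells of a type and less RNA per cell cannot be told apart either.

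Most potassium channel genes lay at the array background. The floor was set at 3.33, the 95th percentile of 28 probe sets of olfactory, vomeronasal and taste receptor symbols, and a gene counted as above it when at least 1 of its probe sets exceeded it on all 7 arrays. By this rule 18 of the 74 genes were above the floor and 56 were not. By probe set the share was 19.2% (24 of 125), against 51.6% of all non-control probe sets. The symbol Olr1, which the name pattern took in, belongs in rat to an oxidized lipoprotein receptor and was at 10.67, and without it the floor was 3.21 and 20 genes were above it. Brightness depends on the probes as well as on the transcript, so levels of different genes are not ranked.

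Levels fell into separate ranges. In 11 genes the brightest probe set had a mean above 7, a line drawn after the values were seen, with Kcnk6 just inside it at 7.07. The nearest below was the second probe set of Kcnj15 at 4.82. The 11 genes were the Kv subunits Kcnd3, Kcnq1 and Kcnq5, the silent subunit Kcns3, the auxiliary subunits Kcne2, Kcne3 and Kcne4, the inward rectifier Kcnj15 and the tandem-pore channels Kcnk1, Kcnk2 and Kcnk6. The other 7 genes above the floor had means between 3.61 and 4.60. Of these, Kcnj3, Kcna6 and Kcnip1 were highest on HSU 2 and lowest on HSU_Sor 3, as were most probe sets at the floor. Passing the rule therefore does not show that they were expressed. Kcnh3, Kcnj4, Kcnk3 and Kcnv2 did not have both features. At the edge of the rule, Kcnip1 passed with a lowest value of 3.46, while Kcnj6 ranged from 3.29 to 3.75 and Kcnmb4 from 3.33 to 3.37 and neither passed.

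**Figure D1:**
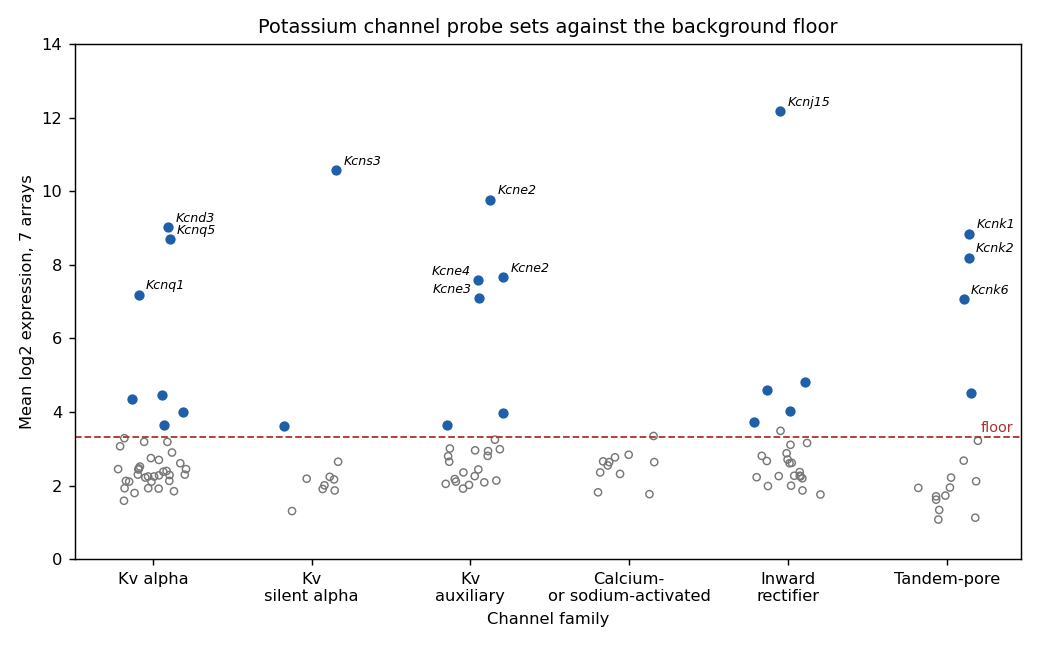
Mean log2 expression over 7 arrays of the 125 potassium channel probe sets (points, spread sideways for legibility) by channel family; filled points exceed the floor of 3.33 (dashed line) on all 7 arrays, open points do not. The named probe sets have means above 7, and none of the calcium- or sodium-activated channel probe sets is filled.

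Among voltage-gated pore subunits, 5 of 24 genes were above the floor. Kcnd3 encodes an A-type channel that inactivates fast, and its brightest probe set was at 9.03, 9.03 and 8.70 in HSU and at 9.30, 8.80, 9.03 and 9.23 in HSU_Sor. Kcnq5 encodes a slow channel of the M-current type that also works in vascular smooth muscle, and it was at 8.45, 9.17 and 8.65 in HSU and at 8.45, 8.66, 9.02 and 8.47 in HSU_Sor. In both genes the groups overlapped throughout. Kcnq1, an epithelial and cardiac channel that pairs with Kcne subunits, was at 7.15, 7.15 and 7.14 in HSU and at 7.43, 7.15, 7.14 and 7.15 in HSU_Sor. On 6 of 7 arrays Kcnq1 thus lay between 7.14 and 7.15. Variation of no more than 0.05 on 6 arrays was shared by 10.9% of all probe sets with means from 7 to 8. It was shared by 62.0% of those with means from 2 to 3. The mean of Kcnq1 above 7 therefore does not by itself show that its transcript was detected. Kcna6 (mean 3.66) and Kcnh3 (mean 4.01), both best known from neurons, were only just above the floor. Of 7 nerve markers none was above the floor on all 7 arrays, although Stmn2 was at 4.33 to 4.58 on 6 of them and at 2.91 on HSU 3.

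The Kv subunits best known from pulmonary artery smooth muscle were not above the floor. Kcna5, the hypoxia-sensitive channel of that muscle, ranged from 3.14 to 3.25 over the 7 arrays. Kcna2 ranged from 2.28 to 2.47 over both of its probe sets, and the lymphocyte channel Kcna3 from 2.10 to 2.16. Also at the floor were Kcna1, Kcna4, Kcnb2, Kcnc1, Kcnc2, Kcnc4, Kcnd1, Kcnd2, Kcnh1, Kcnh2, Kcnh4, Kcnh5, Kcnh6, Kcnh7, Kcnh8 and Kcnq3. Smooth muscle itself was well represented, with all 8 of its markers above the floor and Acta2, the smooth muscle alpha-actin, between 12.88 and 13.36. A probe set at the floor does not show that its transcript is absent.

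The silent subunit Kcns3, which gives no current alone and tunes the channels of Kv partners, was at 10.47, 10.86 and 10.92 in HSU and at 10.47, 10.54, 10.77 and 9.98 in HSU_Sor. The lowest array was HSU_Sor 4, and the other 3 HSU_Sor arrays lay within the range of HSU. Of the other silent subunits, Kcnv2 was just above the floor (mean 3.61), and Kcng2, Kcng3, Kcns1, Kcns2 and Kcnv1 were at it. Thus 2 of the 7 silent subunit genes were above the floor, while Kcnb2, a pore subunit of the kind they pair with, was at the floor between 2.27 and 2.33.

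Auxiliary subunits included 4 of 11 genes above the floor, 3 of them members of the Kcne group of small single-span proteins that change how pore subunits open. Kcne2, which joins Kcnq1 in several epithelia, was at 9.79, 9.96 and 9.68 in HSU and at 9.79, 9.71, 9.97 and 9.48 in HSU_Sor. Kcne3, a partner that keeps Kcnq1 open in epithelia, was at 7.48, 6.32 and 7.51 in HSU and at 7.21, 7.62, 6.46 and 7.12 in HSU_Sor. Kcne3 had the widest range of the 11 brighter genes, 1.30, set by low values on 1 array of each group. Kcne4, which dampens Kcnq1 and some Kv channels, was at 7.53, 7.80 and 8.12 in HSU and at 7.09, 7.53, 7.52 and 7.54 in HSU_Sor. The groups of Kcne4 met at HSU 1, with the other HSU arrays above all HSU_Sor arrays. Kcnip1 was near the floor (mean 3.65), and Kcne1, Kcnip2, Kcnip3, Kcnip4, Kcnab1, Kcnab2 and Kcnab3 were at it.

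All 7 calcium- or sodium-activated channel genes were at the floor. The large-conductance channel gene Kcnma1, which relaxes smooth muscle when calcium rises, ranged from 1.80 to 2.93 over 3 probe sets, and its smooth muscle beta subunit Kcnmb1 from 2.75 to 2.88. The endothelial channels of small and intermediate conductance, Kcnn3 and Kcnn4, ranged from 2.31 to 2.45 and from 2.60 to 2.67. Kcnn1, Kcnt1 and Kcnmb4 completed the group. All 6 endothelial markers measured were above the floor, with mean levels between 12.45 and 12.87 per array.

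Of 14 inward rectifier genes, 3 were above the floor. Kcnj15, a rectifier found mainly in epithelia, was at 12.48, 11.71 and 12.19 in HSU and at 12.14, 11.89, 12.40 and 12.36 in HSU_Sor. Its lowest array was HSU 2 and its highest HSU 1, so the HSU group alone spanned the HSU_Sor values. Kcnj4 (mean 4.60) and Kcnj3 (mean 4.02), the latter a G-protein-gated channel of the atrium, were near the floor. Kcnj3 was at 4.05 and 4.08 on HSU 1 and HSU 2, where the heart muscle markers were highest, and also at 4.07 on HSU_Sor 1 and HSU_Sor 4. Kcnj2, the classical rectifier of vascular endothelium and muscle, ranged from 2.24 to 2.31, and Kcnj11, a pore of ATP-sensitive channels best known from pancreatic beta cells, from 2.17 to 2.70. Kcnj1, Kcnj5, Kcnj6, Kcnj9, Kcnj10, Kcnj12, Kcnj13, Kcnj14 and Kcnj16 were likewise not above the floor.

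Tandem-pore channels, which carry the background leak, had 4 of 11 genes above the floor. Kcnk1 was at 8.93, 8.82 and 8.46 in HSU and at 8.82, 9.0, 8.78 and 9.03 in HSU_Sor. Kcnk2, a channel opened by stretch and lipids, was at 7.75, 8.53 and 8.08 in HSU and at 8.09, 7.91, 8.88 and 8.11 in HSU_Sor. In Kcnk1 the low array was HSU 3, and in Kcnk2 the high one was HSU_Sor 3, with overlapping groups in both. Kcnk6, whose loss causes pulmonary hypertension in mice, was at 7.45, 6.87 and 7.29 in HSU and at 6.99, 6.99, 6.88 and 7.0 in HSU_Sor. In Kcnk6 the HSU_Sor arrays lay close together, above HSU 2 and below the other HSU arrays. Kcnk3, the leak channel whose mutations cause heritable pulmonary arterial hypertension, was near the floor at 4.48, 4.80 and 4.45 in HSU and at 4.48, 4.42, 4.76 and 4.27 in HSU_Sor. The other Kcnk3 probe sets were at the floor, with means of 1.13 and 1.62, as were Kcnk4, Kcnk5, Kcnk9, Kcnk10, Kcnk12, Kcnk13 and Kcnk15.

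**Figure D2:**
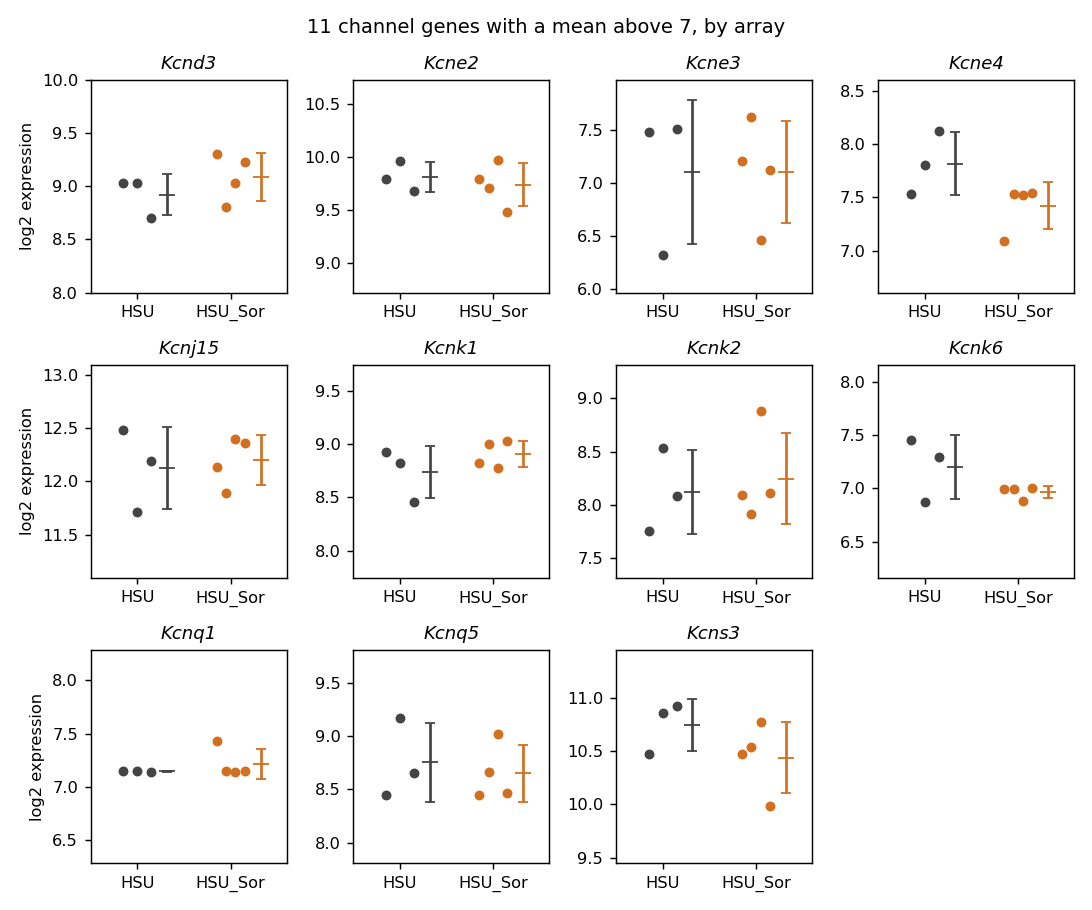
Log2 expression on each array of the 11 potassium channel genes with a mean above 7, in HSU (grey, 3 arrays) and HSU_Sor (orange, 4 arrays); each panel spans 2 log2 units around its own centre, and bars give the mean and SD. The groups overlap in every panel, least so in Kcne4, where HSU 1 at 7.53 falls within the HSU_Sor range.

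Probe sets of 1 gene often differed. Of the 11 brighter genes, 7 had several probe sets, and each of these 7 had at least 1 with a mean under 5. Kcnk2 was at 8.19 by one probe set and 1.08 by the other, Kcnk6 at 7.07 and 1.71, Kcnj15 at 12.17 and 4.82, and Kcne3 at 7.10 and 3.97. Kcnd3 gave 9.02, 4.47 and 4.35, Kcnq5 gave 8.70, 3.29 and 2.52, and Kcne2 gave 9.77, 7.67 and 2.65. In Kcnd3, Kcnj15 and Kcne3 every probe set was above the floor, while Kcnk2, Kcnk6, Kcnq5 and Kcne2 each had at least 1 at the floor. A further 18 genes with several probe sets had all of them at the floor.

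At the floor the values followed the array rather than the gene. Of the 101 member probe sets not above the floor, 91 were highest on HSU 2 and 82 were lowest on HSU_Sor 3. The lower quartile of all probe sets was also highest on HSU 2 (2.42, a level it shared with HSU_Sor 4) and lowest on HSU_Sor 3 (2.37). The median range of these 101 probe sets over the 7 arrays was 0.06.

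The sorafenib comparison asked whether any channel transcript differed when the drug was added. It was tested with limma on the 15521 probe sets whose mean exceeded 3.64, the array-wide median. This held 23 member probe sets of 17 genes, the 18 above the floor less Kcnv2. None of the 23 had a Benjamini-Hochberg adjusted p below 0.05, with a lowest adjusted p of 0.861, and 0.0% of all 15521 probe sets passed either. At an unadjusted p below 0.05 the count was 0 of 23, against 6.0% of all probe sets tested, and 0 of 23 had groups that did not overlap, against 5.26%. Over all 125 members without the filter, both counts were again 0, against 3.51% and 2.77% of all 31042 probe sets. Of the 23 differences, 14 were below 0, 7 above and 2 at 0.00 to 2 decimals. Their median was -0.05, against -0.01 over all probe sets tested.

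The smallest unadjusted p was that of Kcne4. Its HSU mean was 7.82 ± 0.29 (SD, n = 3) and its HSU_Sor mean 7.42 ± 0.22 (SD, n = 4). The log2 difference was -0.40 ± 0.17 (SE; 95% interval -0.81 to 0.02; limma, adjusted p = 0.861). The next was Kcnk6, at 7.20 ± 0.30 and 6.96 ± 0.05, a difference of -0.24 ± 0.13 (interval -0.56 to 0.08; limma, adjusted p = 0.874). Kcns3 followed, at 10.75 ± 0.25 and 10.44 ± 0.33, with a difference of -0.31 ± 0.21 (interval -0.81 to 0.18; limma, adjusted p = 0.874). Each of these differences missed the threshold, and each interval reached past a 1.4-fold decrease, the minimum fold of the series description (0.49 on the log2 scale). Without HSU 1, Kcne4 was at -0.54 with groups that did not overlap, and without HSU 2, Kcnk6 was at -0.40 in the same way. Both had an unadjusted p below 0.05 in limma and neither passed the adjusted threshold. In each gene the array left out was the only HSU array not above all HSU_Sor arrays, so its removal had to end the overlap. The matching shares of all probe sets were not obtained, and nothing is concluded from these 2 fits. Other single arrays made the differences smaller: Kcne4 was at -0.24 without HSU 3, Kcnk6 at -0.12 without HSU 1 and Kcns3 at -0.16 without HSU_Sor 4.

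The largest positive differences were 0.17 ± 0.13 (SE) in Kcnk1 and 0.17 ± 0.15 in Kcnd3, both with overlapping groups. Both rested on HSU 3, without which Kcnk1 was at 0.03 and Kcnd3 at 0.06. The remaining brighter genes lay nearer to 0. Kcnk2 differed by 0.13 ± 0.28, Kcnj15 by 0.07 ± 0.21, Kcnq1 by 0.07 ± 0.08, Kcne2 by -0.07 ± 0.13, Kcnq5 by -0.10 ± 0.21 and Kcne3 by 0.00 ± 0.38. The signs of Kcnj15, Kcne2, Kcnq5, Kcnk2 and Kcne3 depended on single arrays. Kcnk3 differed by -0.09 ± 0.14, with an interval of -0.43 to 0.24.

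The intervals say how much could have been missed. By the brightest probe set, the 95% interval lay inside a 1.4-fold change in both directions for 3 of the 11 brighter genes. They were Kcnq1, Kcne2 and Kcnk1, but the second Kcne2 probe set (mean 7.67) passed that change, at -0.97 to 0.53. For the other 8 genes the interval of the brightest probe set did not lie inside it. The widest, that of Kcne3, ran from a 0.53-fold to a 1.89-fold level. Absence of a call thus does not show that those 8 genes kept their level. Among the 11 tested probe sets with means under 7, the interval was narrowest for the dimmer Kcnj3 probe set (-0.10 to 0.10). That probe set had a range of 0.07, near the median range of 0.06 at the floor, so its narrow interval says little about the transcript. Kcnq1, too, was nearly flat on most arrays. The interval passed a 1.4-fold change for Kcnh3 (-0.73 to 0.26) and the dimmer Kcnj15 probe set (-0.66 to 0.51).

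**Figure D3:**
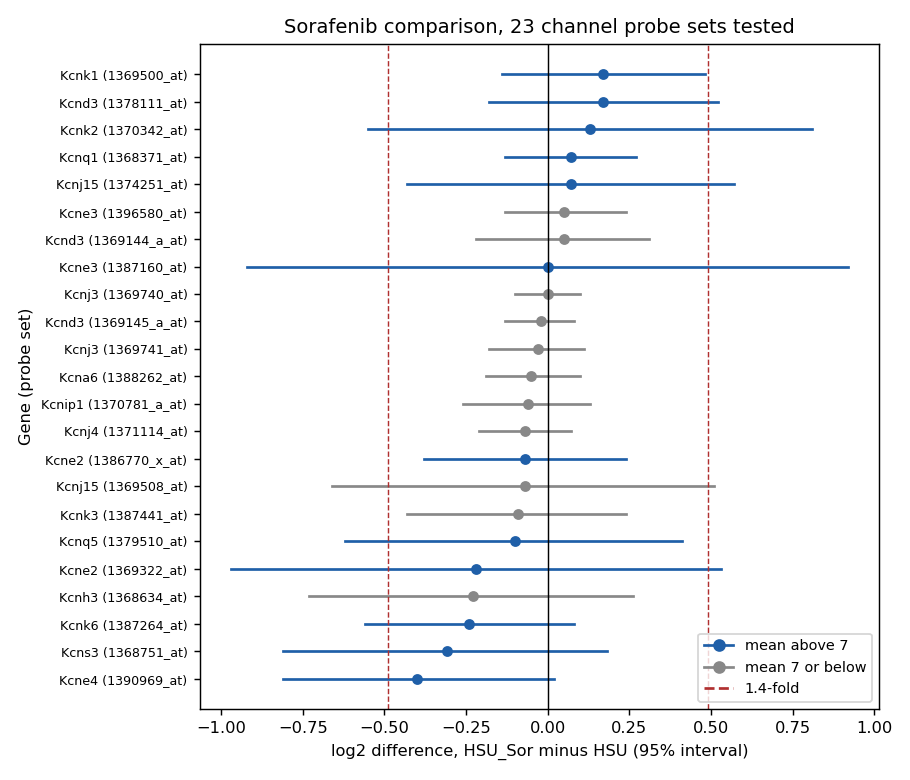
Log2 difference, HSU_Sor minus HSU, with its 95% interval from the limma fit, for the 23 potassium channel probe sets tested; blue marks means above 7, grey marks lower means, and dashed lines mark a 1.4-fold change. All 23 intervals include 0, and that of Kcne4 at the bottom (-0.81 to 0.02) comes closest to leaving it out.

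Leaving out HSU 1 and HSU 2 together left HSU 3 alone against 4 arrays, with its spread assumed to be that of HSU_Sor. Adjusted calls stayed at 0, and 3 of 23 members had an unadjusted p below 0.05, against 7.62% of all probe sets in that fit. These were Kcne4 at -0.70, Kcnk6 at -0.33 and Kcnk1 at 0.45. HSU 3 lay outside the HSU_Sor range for 7 of 23 members, against 36.9% of all probe sets.

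Markers of other cell types were set beside these values, and 0 markers of any list passed the adjusted threshold in limma. Of the 8 smooth muscle markers, 4 were lower in HSU_Sor at an unadjusted p below 0.05, against 6.0% of all probe sets, and 5 had groups that did not overlap, against 5.26%. The mean of these 8 was 11.65 to 11.82 in HSU and 10.81 to 11.32 in HSU_Sor, and none was at the floor. Acta2 was not among them, with a difference of -0.04.

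Macrophage markers were divided. The complement chains C1qa, C1qb and C1qc were lower in HSU_Sor at an unadjusted p below 0.05 and without overlap, with differences of -1.70, -2.69 and -1.68, while Mrc1, Csf1r and Cd68 differed by 0.01, 0.17 and 0.39. All 6 were above the floor, with means of 10.52 to 11.49 in HSU and 9.78 to 10.61 in HSU_Sor. Of 4 mast cell markers, Cpa3 and Mcpt10 were lower at an unadjusted p below 0.05 and Fcer1a was not above the floor, with means of 4.98 to 6.15 and 4.25 to 4.84. Of 6 endothelial markers, Vwf was higher without overlap, by 0.41, at an unadjusted p below 0.05. Of 5 heart muscle markers tested, only Mb, at -2.38, had an unadjusted p below 0.05, with values of 6.88 and 5.59 on HSU 1 and HSU 2 and 2.57 to 2.64 on the other arrays, and the median difference was -1.20. The 7 epithelial markers had means of 13.90 to 14.07 in HSU and 13.92 to 14.01 in HSU_Sor, and 0 of them had an unadjusted p below 0.05. The part of any of these marker differences in those of Kcne4, Kcnk6 and Kcns3 was not tested.

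Genes that work with these channels gave a similar picture. Of 34 listed channel partners, sodium-potassium pump subunits, cation-chloride cotransporters and other potassium-permeable channels, 25 had a probe set and 11 were above the floor. Abcc9, the sulfonylurea receptor of vascular ATP-sensitive channels, was at 10.30, 10.31 and 10.28 in HSU and at 10.55, 10.24, 10.46 and 10.31 in HSU_Sor. Slc12a4, a potassium-chloride cotransporter, was at 8.31, 8.43 and 8.45 in HSU and at 8.0, 8.01, 8.26 and 7.84 in HSU_Sor. All 4 HSU_Sor arrays of Slc12a4 lay below HSU, a difference of -0.37 ± 0.10 (SE; limma, adjusted p = 0.683). It was the only one of the 11 with an unadjusted p below 0.05 in limma, against 6.0% of all probe sets tested. It was also the only one without overlap, against 5.26%, so 1 of 11 is not read as a result about the list. None of the 11 passed the adjusted threshold. The pump subunits Atp1b1 and Atp1b3 differed by 0.07 ± 0.25 and -0.05 ± 0.09. The median of the 11 was -0.10, against -0.01 over all probe sets tested.

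Variation between arrays of 1 group was often as large as the difference between groups. Kcnk2, Kcnq5 and Kcne2 shared their highest arrays, HSU 2 and HSU_Sor 3, and Kcne3 and Kcnk6 were lowest on those same arrays. Kcns3 was lowest on HSU_Sor 4, Kcne4 on HSU_Sor 1 and Kcnk1 on HSU 3. No array was therefore high or low for the brighter channels as a whole.

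**Figure D4:**
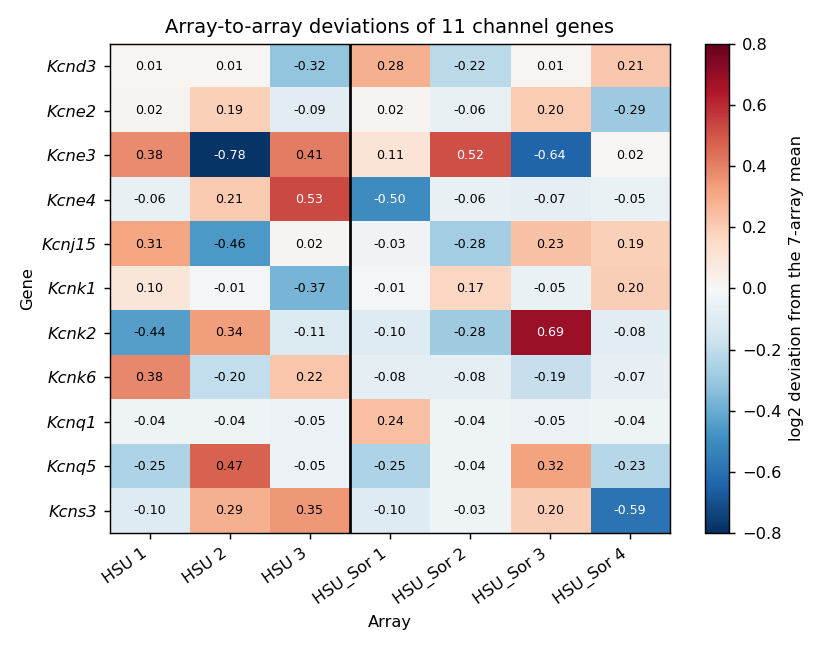
Log2 deviation of each array from the 7-array mean for the 11 potassium channel genes with a mean above 7; red is above and blue below the mean, and the black line separates HSU from HSU_Sor. The strongest deviations, -0.78 for Kcne3 on HSU 2 and 0.69 for Kcnk2 on HSU_Sor 3, fall on single arrays within a group.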

How the data were processed

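The authors' deposited table held normalized log2 values, with arrays as columns. RMA and GCRMA are both named, without version, in the submitters' processing notes, and the sources used here do not say which produced the table. The 57 control probe sets were left out. Probe sets were named from the platform annotation, in which 20826 had 1 symbol, 436 had several and 9780 had none. All 125 member probe sets matched the RefSeq gene table (GRCr8) by gene identifier, with 0 symbols changed. No coordinates were used.

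HSU_Sor minus HSU was fitted with limma 3.58.1 in R 4.3.3 (lmFit, eBayes, no covariate, two-sided) and adjusted by Benjamini-Hochberg over all 15521 probe sets tested. The filter, on the 7-array mean, does not use the groups. The fit was tested on simulated data. The brightest probe set stood for its gene. Named genes were those tested, those of pulmonary vessels and, by floor status, all others. The members, lists and alternatives were chosen with earlier results of these data known. Alternatives covered filters, normalization, variance model, array weights, the replicate number, probe sets per gene, the floor and arrays left out.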

Additional observations from a re-analysis of the deposited data

Results flagged for a closer look

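In 4 of 17 channel genes tested, 1 HSU_Sor array lay far from the other 3. The measure was its gap to the nearest array over the range of the group, set against Dixon's 95% critical value for 4 arrays. Chance passes that value in about 1 of 20 groups of normally spread values, which flat probe sets need not be. The matching share of all probe sets was not obtained, so 4 of 17 is not read as a result about the channels. Kcnq1 was at 7.43 on HSU_Sor 1 against at most 7.15 on the others. Kcne4 was at 7.09 on HSU_Sor 1 against at least 7.52. Kcnk6 was at 6.88 on HSU_Sor 3, next to 6.99, and Kcnh3 at 4.07 on HSU_Sor 4, next to 3.87. In Kcnk6 and Kcnq1 the other arrays were so close together that a small departure sufficed. Without HSU_Sor 1 the Kcne4 difference was -0.28, and without HSU_Sor 3 the Kcnk6 difference was -0.21.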

How the results depend on the processing

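No member passed the adjusted threshold under any of the 16 alternatives fitted. At an unadjusted p below 0.05 there were 1 member with quantile normalization, 2 with the replicate block, 3 without HSU 1 and 2 together and 0 to 1 with single arrays left out. Groups did not overlap for 2 members with quantile normalization, 7 without HSU 1 and 2 together and 0 to 2 with single arrays left out. For quantile normalization, the replicate block and single arrays left out, the matching shares of all probe sets were not obtained. Those member counts therefore cannot be set against the array as a whole, and nothing is concluded from them. The median difference was 0.00 above the 75th percentile (4 members), -0.01 without a filter, 0.03 without HSU 1 and 2 together and -0.08 to -0.01 with single arrays left out. With the 99th percentile of the chemosensory receptors as floor, a value set by Olr1, 3 genes were above it, and other floors gave 15 to 20.

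Same-numbered arrays did not deviate together in all 3 pairs (correlations -0.06, 0.18 and 0.14), so the numbers were not taken as pairs. With the replicate block, Kcne4 was at -0.44, Kcne2 at 0.02 and the dimmer Kcne2 probe set at -0.25. Signs turned as follows. Kcnj15 was at -0.05 with array weights and Kcne3 at 0.01 with quantile normalization or median centring. Without HSU 1 and 2 together, Kcnj3, Kcnip1, Kcnh3 and Kcnk3 were at 0.03, Kcna6 at 0.02, Kcne2 at 0.07, and Kcnj4 and Kcnq5 at 0.00. With single arrays left out the ranges were -0.14 to 0.24 for Kcnj15 (lowest without HSU 2), -0.37 to 0.03 for Kcnh3 (highest without HSU 1), -0.26 to 0.10 for Kcnq5 (highest without HSU 2), -0.15 to 0.02 for Kcne2, -0.39 to 0.21 for Kcne3, -0.08 to 0.33 for Kcnk2 and -0.18 to 0.02 for Kcnk3. None of these differences was called, and the cause of the turns was not tested. The Olr1 setting was chosen after seeing the data.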

Other observations

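The pattern in which HSU 2 and HSU_Sor 3 were the highest arrays was seen in 3 of the 12 member probe sets with a mean above 7, those of Kcnk2, Kcnq5 and Kcne2 (brightest probe set), and in 7.81% of the 11241 probe sets of that level over the array. Kcnk3 showed it as well, at 4.80 and 4.76 against at most 4.48 on the other arrays. It was noticed in these values and not tested.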
